A study of Mus musculus with 16 samples.

Results

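Thymic lymphomas of mice that carried both a Dlx5 and an activated Akt2 transgene were compared with thymic lymphomas of mice that carried the activated Akt2 transgene alone, from its founder line 420. The comparison took 7 of the 16 arrays of the study, chosen by genotype and founder line alone: 4 tumors of genotype Lck-Dlx5;Lck-MyrAkt2, called double transgenic here, and 3 tumors of genotype Lck-MyrAkt2 whose source was founder line 420. The source names of these 3 also hold the word cell with a number, and the labels do not say whether that is a tumor number or a cell line, which would bear on the markers of other cell types below. The Lck promoter, whose activity is mainly in immature T cells, drove both transgenes, and MyrAkt2 is a membrane-anchored, constitutively active form of the kinase Akt2. The double transgenic tumors came from mice of 2 months, and the line 420 tumors from mice of 5 months. Double transgenic tumors 1 and 2 carried Dlx5 founder line 47 and, by their titles, Akt2 line 420. Double transgenic tumors 3 and 4 carried Dlx5 founder line 86, and their labels name no Akt2 line. The titles of all 4 double transgenic tumors also hold the mark +/+, which those of the line 420 tumors lack. The labels do not explain this mark. The other 9 arrays, which are 3 Lck-Dlx5 lymphomas and 3 thymic T cell samples from wild-type (WT) littermates, both at 9 months, and 3 tumors of Akt2 line 72 at 5 months, entered the fit and serve as reference levels. Age goes with genotype in this comparison, and the effects of age and of the added transgene cannot be told apart. The labels do not say whether each tumor came from a mouse of its own, so the p-values measure a spread between samples. That spread was taken within the groups of all 16 arrays, WT samples included, and not within the 7 tumors compared alone.

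Dlx5 is a homeodomain transcription factor that acts in the developing skeleton, forebrain and branchial arches and is normally silent in thymocytes. It lies beside its relative Dlx6 on mouse chromosome 6, and the long non-coding RNA Dlx6os1 (Evf2) is transcribed from the same locus. Thymocytes pass from a double-negative stage, through a double-positive stage with both CD4 and CD8 on the surface, to single-positive T cells, and the kinase Akt carries growth and survival signals along this path. In Lck-MyrAkt2 mice the study describes a recurrent inversion of chromosome 6 that brings T cell receptor beta enhancer sequences next to Dlx5. The comparison therefore sets tumors with both transgenes against tumors with the Akt2 transgene alone. As the levels below show, the latter also had a Dlx5 signal well above that of WT thymus. Whether the double transgenic tumors hold Dlx5 transcripts from the endogenous gene besides those of the transgene was not tested. Whether each line 420 tumor carries the inversion was not tested.

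The values were log2 expression levels of 41345 array features, of which 23521 carried exactly 1 gene symbol, 1820 several and 16004 none. The brightest feature was kept for each of 22180 genes, and the 12932 genes brighter than their array's median on 3 or more of the 16 arrays were tested. Array medians ranged from 6.32 to 6.46. Over these 12932 genes the correlation of double transgenic tumor 2 with the 3 line 420 tumors was 0.953, 0.960 and 0.955, about that with double transgenic tumor 1 (0.958) and above that with double transgenic tumors 3 and 4 (0.909 and 0.928). Tumor 1 had correlations of 0.936 to 0.958 with line 420 and of 0.947 and 0.948 with tumors 3 and 4, which had 0.980 with each other. Results that turn on tumor 2 are given with it and without it. Because it was singled out for its likeness to the reference group, leaving it out widens the differences by construction, and calls gained without it are descriptions and not support. The X-linked transcript Xist was at 12.57 and 12.37 in double transgenic tumors 3 and 4 and at 12.37 in line 420 tumor 3, and at 4.94 to 5.65 in the other 4 tumors, where the Y-linked Kdm5d was at 8.67 to 9.04 instead of 3.76 to 4.08. Female and male patterns were thus both present in both groups, but within the double transgenic group they coincided with the Dlx5 founder line.

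With limma fitted to all 16 arrays, 23 of 12932 genes passed an adjusted p of 0.05 (Benjamini-Hochberg), or 0.178% of genes tested. Of these 16 were higher (0.124%) and 7 lower (0.0541%) in double transgenic tumors, by log2 differences of 0.50 to 3.29 and -3.12 to -0.57, and 16 of the 23 differed by at least 1 on the log2 scale. The 2 groups did not overlap for any of the 23 genes. Over all genes tested the groups did not overlap for 1345 genes (10.4%; 7.38% higher and 3.02% lower), and 2004 genes (15.5%) had an unadjusted p under 0.05, with 1437 higher (11.1%) and 567 lower (4.38%). The median log2 difference over all genes was 0.04. For comparison, the double transgenic tumors differed from WT thymic T cells for 3079 genes (23.8%) and line 420 tumors for 3946 genes (30.5%). Against the other Akt2 line, 72, double transgenic tumors differed for 2290 genes (17.7%; 9.19% higher and 8.51% lower).

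The number of genes called depended on single tumors. Without double transgenic tumor 2, 503 genes were higher (3.89%) and 162 lower (1.25%), 665 in all (5.14%), and all 23 genes remained called. Leaving out double transgenic tumor 1 gave 11 higher and 6 lower, tumor 3 gave 4 and 3, and tumor 4 gave 3 and 3. Leaving out line 420 tumor 1 gave 4 higher and 5 lower, tumor 2 gave 18 and 13, and tumor 3 gave 11 and 3. Dlx5, Dlx6, Dlx6os1 and Plekhf1 were the 4 genes that stayed called whichever tumor was left out, and Sh3gl3 was lost only without line 420 tumor 1. The 19 genes lost at least once reached adjusted p-values of at most 0.142, and of the 23 genes 12 remained without double transgenic tumor 1, 5 without tumor 3, 5 without tumor 4, and 8, 10 and 8 without line 420 tumors 1, 2 and 3. When the fit was restricted to the 7 arrays compared, 1 gene was higher and 2 were lower, all 3 of them among the 23. Dlx5, Plekhf1 and Sh3gl3 were not called in that fit (adjusted p = 0.103 for each, limma). With the Dlx5 founder lines fitted as separate groups, the founder line 86 tumors differed from line 420 for 1193 genes (9.23%, with 898 or 6.94% higher and 295 or 2.28% lower), among them all 23. The founder line 47 tumors differed for 19 genes (0.147%, with 16 or 0.124% higher and 3 or 0.0232% lower), of which 7 were among the 23. The plot of calls by the arrays kept shows these counts side by side.

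**Figure D1:**
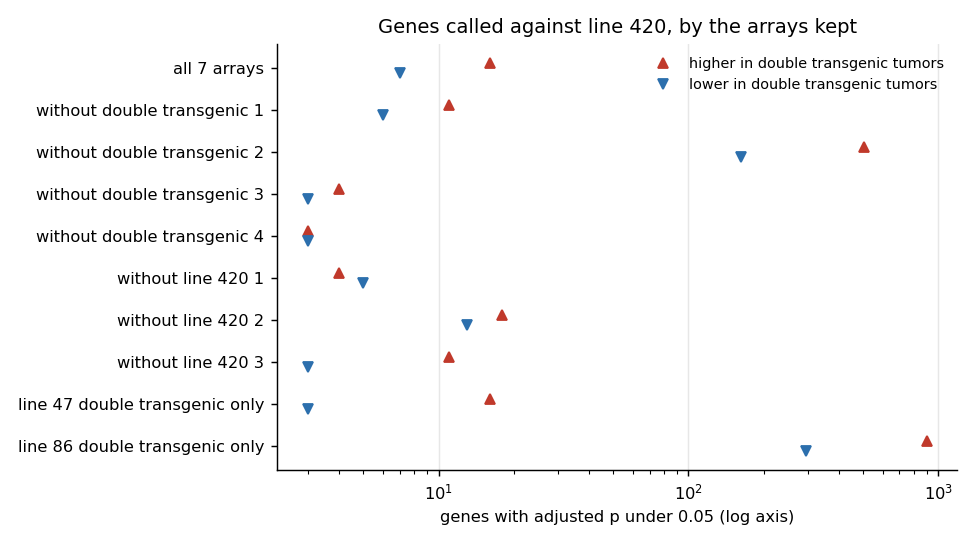
Number of genes called higher or lower in double transgenic tumors than in line 420 tumors (adjusted p under 0.05, limma; log axis) when all 7 tumors are used, when 1 tumor is left out, and for each Dlx5 founder line alone. The full set gives 16 higher and 7 lower, the set without double transgenic tumor 2 gives 503 and 162, and founder line 86 alone gives 898 and 295.

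The 3 smallest adjusted p-values belonged to genes of the Dlx5 locus itself, and their differences ran in opposite directions. Of these, Dlx6 and Dlx6os1 entered the test through the line 420 arrays alone, as given below. Dlx5 (chr6:6877801-6882068, GRCm38.p6) was at 12.68, 11.93, 12.97 and 12.83 in the 4 double transgenic tumors and at 9.87, 10.69 and 10.28 in the 3 line 420 tumors. The groups did not overlap, and both lay far above the WT mean of 5.76 and the line 72 mean of 6.05. The difference was 2.32 ± 0.25 (SE; 95% interval 1.79 to 2.85; means 12.60 ± 0.46 SD, n = 4, and 10.28 ± 0.41 SD, n = 3), a 5.00-fold higher level (adjusted p = 0.00083, limma). Line 420 tumors were themselves 4.52 above WT on the log2 scale (adjusted p = 2.09e-07), and double transgenic tumors 6.84 above WT (adjusted p = 1.41e-09). The Lck-Dlx5 lymphomas, with the same transgene and no MyrAkt2, had a mean of 11.94. The deposited value is 1 level per feature and does not separate transgene from endogenous Dlx5 transcripts.

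Dlx6, the homeobox gene next to Dlx5 (chr6:6863334-6867970), was at 5.82, 6.01, 5.56 and 5.60 in double transgenic tumors and at 8.30, 9.26 and 9.05 in line 420 tumors. It was high in all 3 line 420 tumors and, in the double transgenic tumors, near the WT mean of 5.63 and the line 72 mean of 5.49. Dlx6 was thus 3.12 ± 0.21 lower on the log2 scale in double transgenic tumors, an 8.69-fold difference (95% interval -3.57 to -2.67; adjusted p = 3.36e-06, limma). Dlx6os1 (chr6:6820543-6871627), the non-coding RNA that overlaps Dlx6, was at 5.36, 5.13, 5.10 and 5.28 in double transgenic tumors against 7.48, 8.41 and 8.14 in line 420 tumors. Again the groups did not overlap, and the double transgenic levels lay near the WT mean of 5.25. The difference was -2.79 ± 0.17 (95% interval -3.15 to -2.43; 6.93-fold; adjusted p = 1.48e-06). Against WT, line 420 tumors were 3.24 higher for Dlx6 (adjusted p = 9.96e-07) and 2.76 higher for Dlx6os1 (adjusted p = 6.14e-07), whereas double transgenic tumors differed from WT by 0.12 and -0.03 (adjusted p = 0.736 and 0.91). Because the comparisons with WT share the WT arrays, and that with line 420 shares the tumors, these values describe the same levels from different sides. Dlx6 and Dlx6os1 exceeded the array median on the 3 line 420 arrays alone, and passed the brightness filter only through that group. Their adjusted p-values are therefore descriptions and not support. Their double transgenic levels lay below the array medians, so the folds set line 420 against a dim level. Without double transgenic tumor 2 the 3 differences were 2.55 for Dlx5, -3.21 for Dlx6 and -2.76 for Dlx6os1, all still called.

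The difference was narrow in extent. Within 1 Mb of Dlx5 the array held 12 genes, and the 2 groups failed to overlap for Dlx5, Dlx6 and Dlx6os1 alone. Among the other genes of this stretch the tested ones differed little: Asns, the asparagine synthetase gene, by -0.39, Slc25a13, a mitochondrial aspartate-glutamate carrier, by -0.14, Sdhaf3, an assembly factor of succinate dehydrogenase, by 0.13, Sem1, a proteasome subunit, by 0.12 and C1galt1, a glycosyltransferase, by 0.07. Dlx6os2, a second antisense transcript of the locus that was too dim to be tested, had group means of 5.13 and 5.93. Outside this locus, Dlx2, a relative on chromosome 2 looked at after its values were seen, was at 6.80, 10.11, 7.13 and 7.35 in double transgenic tumors and at 8.70, 10.53 and 8.62 in line 420 tumors. In double transgenic tumor 2 it lay within the line 420 range, and in the other 3 it was near the WT mean of 6.75. The difference was -1.43 ± 0.66 (adjusted p = 0.321) with all tumors and -2.18 (adjusted p = 0.0186) without double transgenic tumor 2.

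**Figure D2:**
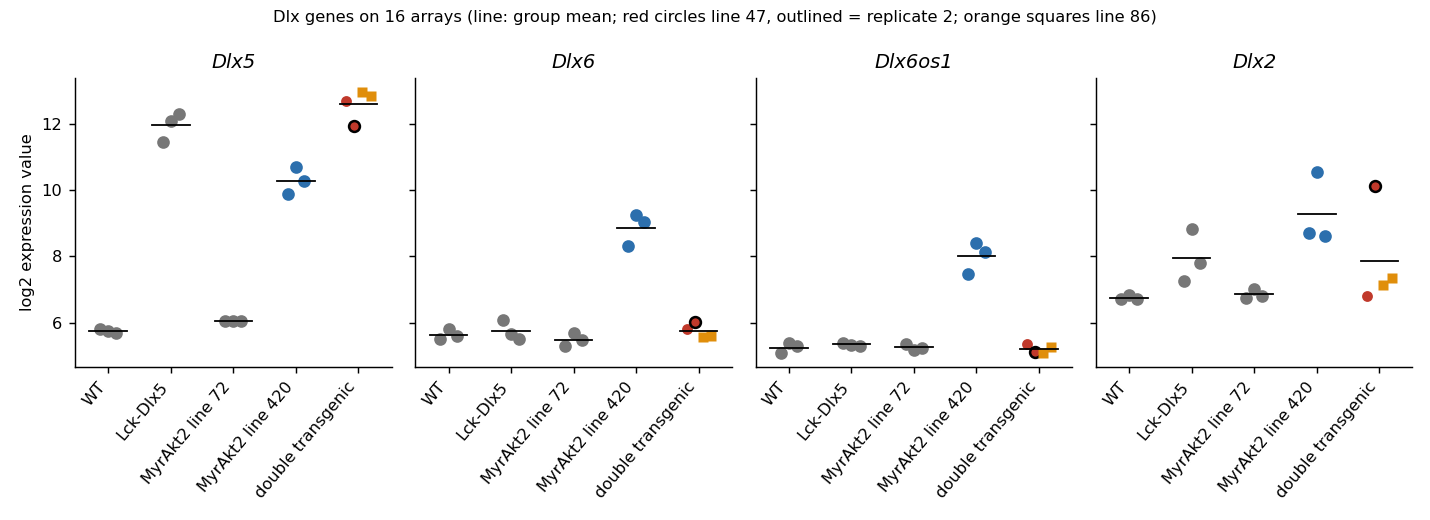
Log2 expression of Dlx5, Dlx6, Dlx6os1 and Dlx2 on each of the 16 arrays, by group, with a line at each group mean; double transgenic tumors are marked by Dlx5 founder line (circles 47, squares 86) and double transgenic tumor 2 is outlined. Dlx5 is highest in double transgenic tumors (11.93 to 12.97) while Dlx6 stays at 5.56 to 6.01 there and reaches 8.30 to 9.26 in line 420 tumors.

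The sequences before the starts of Dlx6os1 are shown because this transcript had the smallest adjusted p of the comparison, and that of Plekhf1 because it was the called gene outside the Dlx5 locus with the smallest adjusted p. They are RefSeq windows of 300 bases on GRCm38.p6, with 250 bases before and 50 after an annotated start, written 5′ to 3′ on the gene's strand, and capitals mark TAATT or its reverse complement AATTA, the core letters of many homeodomain sites, with overlapping matches joined. Dlx6os1 has a window at chr6:6869484-6869783 (minus strand, 7 matches) and one at chr6:6861634-6861933 (minus strand, 4 matches). Plekhf1 has one at chr7:38227945-38228244 (minus strand, 2 matches that overlap).
Dlx6os1, first window: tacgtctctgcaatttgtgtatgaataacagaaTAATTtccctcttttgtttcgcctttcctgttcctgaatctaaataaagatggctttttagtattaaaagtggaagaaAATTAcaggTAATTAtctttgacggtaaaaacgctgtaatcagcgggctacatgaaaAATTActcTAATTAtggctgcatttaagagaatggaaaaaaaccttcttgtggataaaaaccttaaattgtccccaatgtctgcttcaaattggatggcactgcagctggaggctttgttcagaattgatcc
Dlx6os1, second window: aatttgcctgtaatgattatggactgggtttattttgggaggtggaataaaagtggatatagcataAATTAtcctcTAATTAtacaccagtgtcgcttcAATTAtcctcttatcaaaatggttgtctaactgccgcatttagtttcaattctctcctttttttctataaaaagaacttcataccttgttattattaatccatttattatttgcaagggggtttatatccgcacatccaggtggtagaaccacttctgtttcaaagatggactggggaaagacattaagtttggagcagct
Plekhf1: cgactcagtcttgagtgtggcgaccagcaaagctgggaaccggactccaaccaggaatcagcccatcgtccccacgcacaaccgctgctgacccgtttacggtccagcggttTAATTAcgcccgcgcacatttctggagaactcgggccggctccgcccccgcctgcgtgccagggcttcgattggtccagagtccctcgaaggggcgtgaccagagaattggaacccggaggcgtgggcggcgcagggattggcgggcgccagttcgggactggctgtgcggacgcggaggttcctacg
Of all 32851 windows 27.0% held at least 1 match, 1.65% at least 4 and 0.140% at least 7. Of the 23 called genes 15 had a window, and 6 of these 15 had a match, as did 4 of the 11 with a window among the genes that were higher. A match is a run of letters and not a bound site.

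Among the genes that were higher in double transgenic tumors, Sh3gl3 (chromosome 7), which encodes the endocytic protein endophilin A3, had the largest difference. It was at 10.45, 9.43, 9.33 and 9.79 in double transgenic tumors and at 5.60, 7.08 and 6.70 in line 420 tumors. All 4 double transgenic tumors lay above all line 420 tumors, and near the Lck-Dlx5 mean of 9.90 rather than the WT mean of 6.91. The difference was 3.29 ± 0.46 (9.80-fold; adjusted p = 0.0122). It was 2.86 (adjusted p = 0.054) without line 420 tumor 1, which had the lowest level. Igf2bp3, an mRNA-binding protein of fetal tissues, was at 8.90, 8.32, 8.05 and 8.57 against 6.51, 6.13 and 5.96. Here the double transgenic tumors resembled WT thymus (8.22) and the line 420 tumors were the low group, 2.02 below WT (adjusted p = 0.00196). The difference of 2.25 ± 0.37 was 4.77-fold (adjusted p = 0.031).

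Plekhf1, a protein of endosomes and lysosomes, was at 8.86, 8.78, 9.07 and 9.25 in double transgenic tumors and at 7.90, 7.93 and 7.77 in line 420 tumors. Its spread within each group was small, and the difference of 1.13 ± 0.15 (2.18-fold) had an adjusted p of 0.00687. Cldn4, a claudin of epithelial tight junctions, was at 7.82, 7.35, 8.56 and 8.71 against 6.75, 6.08 and 6.65, a difference of 1.61 ± 0.29 (3.06-fold; adjusted p = 0.0392). It was the one called gene that also differed between the Dlx5 founder lines, being lower in 47 than in 86 by 1.05 (founder line 47 minus 86, -1.05; adjusted p = 0.0358). Further genes with log2 differences above 1 were Eid2, an inhibitor of differentiation that binds EP300 (1.32), Ccnjl, a cyclin J relative (1.23), Abcc1, an export pump for drugs and glutathione conjugates (1.10), Scamp1, a carrier protein of secretory membranes (1.05), and Ppp1r3b, which targets protein phosphatase 1 to glycogen (1.03). Smaller differences were called for Tmem185b (0.88), the protease inhibitor Spint2 (0.75), the fatty-acid nuclear receptor Ppard (0.67), the predicted gene Gm9292 (0.65), Smim19 (0.50) and the hydrolase gene Hddc3 (0.50).

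Of the 7 genes that were lower, Tanc2, a scaffold protein of synapses, was at 6.39, 6.74, 5.67 and 6.44 in double transgenic tumors and at 7.12, 8.71 and 9.12 in line 420 tumors. The double transgenic levels surrounded the WT mean of 6.59, and the difference was -2.01 ± 0.36 (4.02-fold; adjusted p = 0.0392). Ighg3, an immunoglobulin heavy-chain constant region, was at 6.60, 6.57, 6.77 and 6.85 against 9.04, 7.74 and 8.10 (difference -1.60 ± 0.24; 3.03-fold; adjusted p = 0.0229). It is a transcript of B cells and plasma cells, and the summed B cell markers, given below, overlapped between the groups. Sec24d, a subunit of the COPII coat of vesicles that leave the endoplasmic reticulum, was at 6.32, 7.48, 6.30 and 6.58 against 8.47, 7.82 and 8.25. Double transgenic tumor 2 was the closest to line 420, and the difference was -1.51 ± 0.27 (2.84-fold; adjusted p = 0.0392) with it and -1.78 (adjusted p = 0.00182) without it. AY358078 (-1.11; adjusted p = 0.0408) and E030024N20Rik (-0.57; adjusted p = 0.0392) completed the set with Dlx6 and Dlx6os1.

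For 10 of the 16 higher genes and 6 of the 7 lower genes the WT mean lay nearer to the double transgenic mean than to the line 420 mean. The corresponding numbers were 7 and 6 with the line 72 mean, and 7 and 6 with the Lck-Dlx5 mean. The same count was not made over all genes tested, so these numbers are not shown to be particular to the called genes. Over all genes, line 420 tumors differed from WT for 30.5% and double transgenic tumors for 23.8%. Of 634 tested genes on chromosome 6, 4 were called, 3 of them the Dlx5 locus genes described above, and of 1033 on chromosome 7, 5 were called, where 0.178% of all genes were. The plot of called genes by tumor shows that double transgenic tumor 2 lay on the same side of line 420 as its group for all of them.

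**Figure D3:**
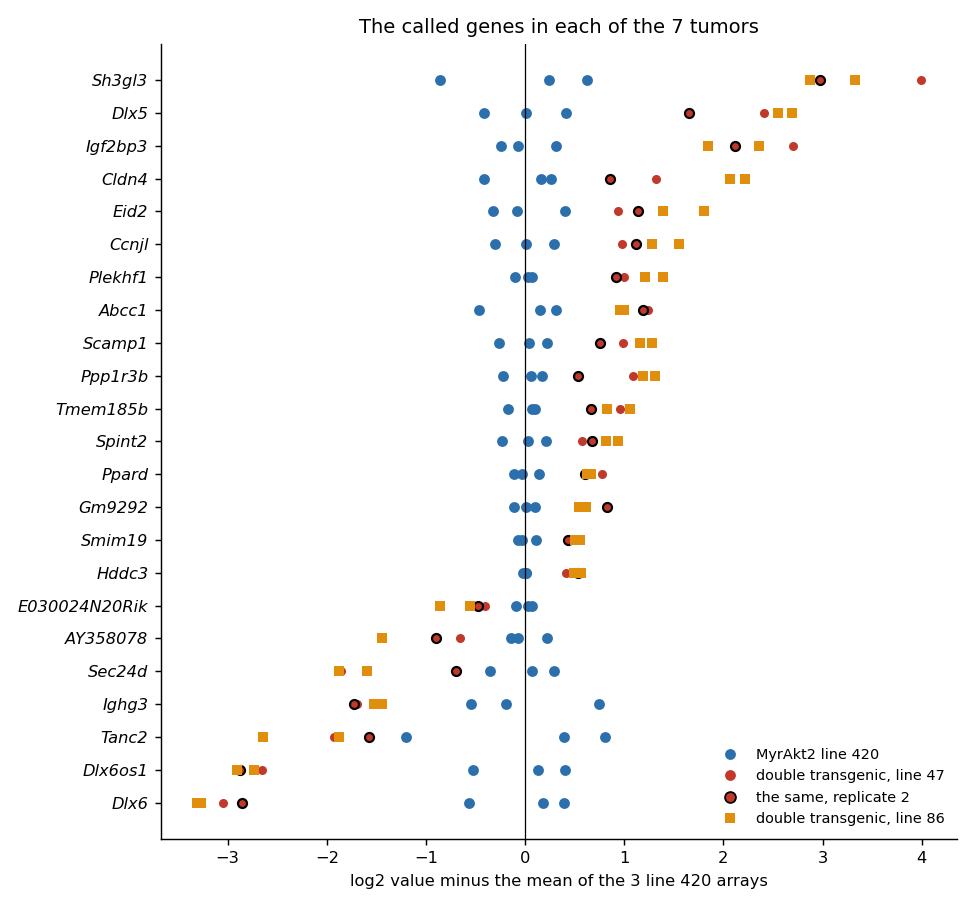
Log2 level of each of the 23 called genes in the 4 double transgenic and 3 line 420 tumors, minus the line 420 mean of that gene. The differences of group means run from 3.29 (Sh3gl3) to -3.12 (Dlx6), and no double transgenic tumor falls within the line 420 range for any of these genes.

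The genes on which the study centres, other than Dlx5, were not called between double transgenic and line 420 tumors (0 of 13 tested by limma, where 0.178% of all genes were called, and 1 of the 13, Tnf, at an unadjusted p under 0.05). The receptor gene Notch1 was at 11.43, 11.69, 9.60 and 10.07 in double transgenic tumors and at 8.15, 11.90 and 11.06 in line 420 tumors, and its relative Notch3 at 9.73, 8.93, 7.41 and 8.59 against 6.17, 9.35 and 9.51. Both were lowest in line 420 tumor 1, and both groups spanned more than 2 log2 units. The differences were 0.33 ± 0.68 for Notch1 (95% interval -1.13 to 1.78; adjusted p = 0.86) and 0.32 ± 0.65 for Notch3 (adjusted p = 0.855). The Notch target Hes1 differed by 0.73 ± 0.61 (adjusted p = 0.608). Myc, a growth-promoting transcription factor, differed by 0.20 ± 0.23 (adjusted p = 0.731), although double transgenic tumors were 1.48 above WT (adjusted p = 0.000786).

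Akt2, for which endogenous and transgene transcripts likewise share 1 value, was at 9.58, 9.61, 10.11 and 10.04 in double transgenic tumors and at 9.59, 9.65 and 9.56 in line 420 tumors, with a WT mean of 9.80. Its levels in the founder line 47 tumors were those of line 420, and those of founder line 86 lay higher, by 0.48 over line 420 (adjusted p = 0.0103). Over all 4 tumors the difference was 0.24 ± 0.13 (adjusted p = 0.389). Irs2, an adaptor of the insulin receptor upstream of Akt, differed by 0.43 ± 0.33 (adjusted p = 0.574), the cyclin gene Ccnd1 by -0.14 ± 0.49 (adjusted p = 0.923), Tet2 by 0.48 (adjusted p = 0.708) and Lats2 by -0.02 (adjusted p = 0.98). Tnf differed by 0.52 (adjusted p = 0.284), Xaf1 by -0.09 (adjusted p = 0.925) and the kinase gene Tnik by 0.63 (adjusted p = 0.378). The death receptor gene Fas was at 8.69, 6.73, 8.35 and 8.78 in double transgenic tumors and at 7.36, 7.59 and 6.98 in line 420 tumors. Double transgenic tumor 2 was below every line 420 tumor and the other 3 above, so that the difference was 0.83 (adjusted p = 0.365) with it and 1.30 (adjusted p = 0.0241) without it.

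Genes of the double-positive thymocyte stage were higher in 3 of the 4 double transgenic tumors, without passing the test in the full set. The list held 19 tested genes, of which 0 were called and 10 had an unadjusted p under 0.05, all higher (limma; 11.1% over all genes). The median log2 difference was 1.04, against 0.04 over all genes, and 16 of the 19 differences were positive. By tumor, the list's median relative to the line 420 mean was 1.11, 0.12, 1.32 and 1.37 in the double transgenic tumors and 0.05, 0.42 and -0.52 in the line 420 tumors. Double transgenic tumor 2 thus lay within the line 420 range and the other 3 above it, and leaving out 1 tumor at a time gave medians from 0.76 to 1.35. Without double transgenic tumor 2, the one nearest to line 420, 4 of the 19 passed (Plxnd1, Ets2, Cd4 and Satb1; 5.14% of all genes passed in that comparison), and with any other single tumor left out 0 passed (limma). Members beyond Rag2 and Tdrd5 are named here after their values were seen.

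Rag2, a subunit of the recombinase that assembles antigen receptor genes, was at 8.72, 8.83, 7.70 and 7.74 in double transgenic tumors and at 5.26, 7.12 and 6.65 in line 420 tumors, both below the WT mean of 10.93. The groups did not overlap, and the difference of 1.90 ± 0.45 missed the threshold (adjusted p = 0.0878). Tdrd5 differed by 1.64 (adjusted p = 0.217). The coreceptor gene Cd4 was at 11.90, 10.67, 11.87 and 12.04 against 10.70, 11.02 and 10.03, and only double transgenic tumor 2 lay within the line 420 range. Its difference was 1.04 (adjusted p = 0.157), or 1.35 without that tumor (adjusted p = 0.0145). Cd8a, the other coreceptor, was at 12.35, 11.79, 12.35 and 12.46 against 10.69, 11.69 and 10.25 (difference 1.36; adjusted p = 0.137), with no overlap. Ets2, a transcription factor, and Plxnd1, a semaphorin receptor, differed by 1.30 and 1.26 (adjusted p = 0.0679 and 0.0617), and by 1.51 and 1.50 without double transgenic tumor 2 (adjusted p = 0.00928 and 0.00431). In bulk tumor RNA, fewer cells of a type and less RNA per cell cannot be told apart.

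Genes of the T cell receptor complex and its signaling showed a smaller shift. Of 27 tested 0 were called, 8 had an unadjusted p under 0.05, all higher (11.1% of all genes), and the median difference was 0.32, with 25 of 27 positive. The largest were Cd5, a surface inhibitor of receptor signaling, and Txk, a Tec-family kinase. Txk was at 8.74, 7.71, 9.85 and 9.24 in double transgenic tumors and at 6.64, 7.06 and 6.94 in line 420 tumors, without overlap (difference 2.01; adjusted p = 0.108; without double transgenic tumor 2, adjusted p = 0.0186). Cd5 was at 9.70, 7.36, 11.80 and 11.67 against 8.97, 7.23 and 7.40, so that double transgenic tumor 2 fell among the line 420 tumors (difference 2.27 ± 0.89; adjusted p = 0.248; without that tumor 3.19, adjusted p = 0.0213). Of 30 genes in the list of Ikaros family and lineage factors 0 were called, and 7 had an unadjusted p under 0.05 on the higher and 1 on the lower side (median 0.31), where 11.1% and 4.38% of all genes did. Lef1, a partner of beta-catenin in thymocytes, was at 11.57, 11.07, 11.05 and 11.13 against 7.51, 10.80 and 9.66. The double transgenic tumors were alike and the line 420 tumors were not, which gave a difference of 1.88 (adjusted p = 0.137).

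Immediate early genes, which answer receptor signaling within minutes, had 8 of 20 members with an unadjusted p under 0.05, all higher (11.1% of all genes), 0 called and a median of 0.39. Egr1 was at 7.14, 5.99, 8.89 and 8.89 in double transgenic tumors and at 6.11, 6.02 and 5.85 in line 420 tumors, again with double transgenic tumor 2 in the line 420 range (difference 1.74; adjusted p = 0.166; without that tumor 2.32, adjusted p = 0.0127). Of 33 PI3K-Akt components 0 were called and 8 higher and 1 lower had an unadjusted p under 0.05 (median 0.15; 11.1% and 4.38% of all genes). Sgk3, a kinase related to Akt, was at 7.72, 7.87, 8.85 and 8.81 against 6.90, 5.97 and 7.47, without overlap (difference 1.53 ± 0.32; adjusted p = 0.0712). Of 32 interleukin and cytokine receptor chains and their mediators 0 were called, with 7 higher and 4 lower at an unadjusted p under 0.05, against 11.1% and 4.38% of all genes. Il7r, the receptor chain for interleukin 7, was at 7.42, 10.07, 9.22 and 9.28 against 10.41, 10.03 and 11.05. Double transgenic tumor 2 was alone in reaching the line 420 range, and the difference was -1.50 (adjusted p = 0.154), or -1.86 without it (adjusted p = 0.031).

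Heat shock and unfolded protein response genes leaned the other way, with 5 of 21 at an unadjusted p under 0.05 on the lower side (4.38% of all genes) and 3 on the higher side (11.1%), 0 called and a median of -0.22. Hspa5 (BiP), the main chaperone of the endoplasmic reticulum, was looked at after its values were seen, and stood at 8.65, 9.02, 8.70 and 9.08 in double transgenic tumors and at 9.35, 9.36 and 9.54 in line 420 tumors. Its groups did not overlap, and the difference was -0.55 (adjusted p = 0.0795; without double transgenic tumor 2, -0.61, adjusted p = 0.0233). Hsp90b1, another chaperone there, differed by -0.36 (adjusted p = 0.135). Hspa1a, an inducible cytosolic chaperone, differed by 0.93 (adjusted p = 0.25). By limma 0 of 19 Notch receptors and machinery genes were called, with 4 higher and 1 lower at an unadjusted p under 0.05 (median 0.20), against 11.1% and 4.38% of all genes. The same test called 0 of 13 Notch targets (2 higher and 1 lower at an unadjusted p under 0.05; median 0.14) and 0 of 19 FoxO factors and FoxO-activated genes (4 and 1; median 0.36). Glycolysis had 0 of 18 called (2 and 0; median 0.17) and DNA replication 0 of 34 (0 and 0; median -0.09). Of 42 lists only the Dlx genes (Dlx5 and Dlx6, of 4 tested) and the thymic epithelium markers (Cldn4, of 9) held a called member.

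**Figure D4:**
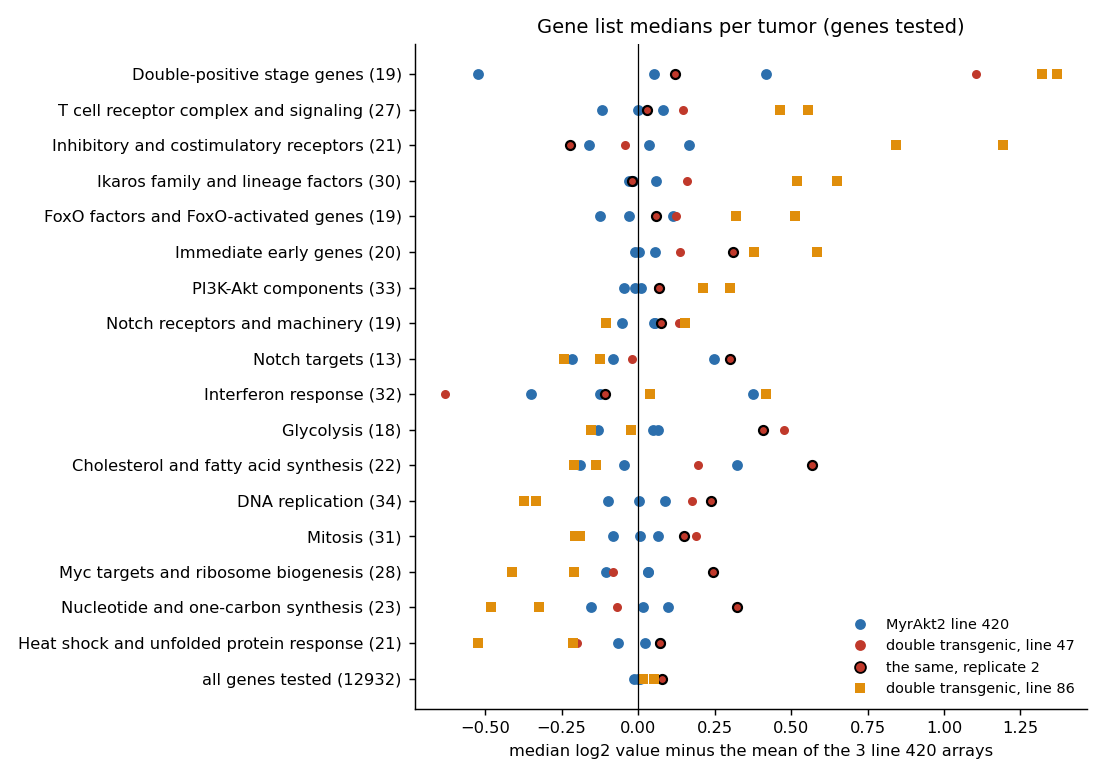
Median over the tested genes of each of 18 lists of the log2 level minus the line 420 mean, for each double transgenic and line 420 tumor. For the double-positive stage genes 3 double transgenic tumors lie at 1.11 to 1.37 and tumor 2 lies at 0.12, inside the line 420 range of -0.52 to 0.42.

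Cell type markers were summed on the linear scale for each tumor. The T cell marker sum (10 of 12 markers on the array, 7 above the array median on all 7 tumors) was 14.40 to 14.94 on the log2 scale in double transgenic tumors and 14.03 to 14.44 in line 420 tumors. The macrophage and dendritic cell sum (18 of 19 on the array, 12 above the median on all 7) was 12.03 to 12.66 against 12.67 to 13.24. It was lower in every double transgenic tumor, but the nearest values of the groups, 12.66 and 12.67, almost met. Of its 18 members 0 were called, and the groups did not overlap for 2, both lower (3.02% of all genes). Vsig4, above the array median on 3 of the 7 tumors, differed by -1.12 (adjusted p = 0.376) and Apoe by -0.76 (adjusted p = 0.108). The B cell sum (9 of 10 on the array, 5 above the median on all 7, 1 on none) was 9.61 to 10.60 against 10.24 to 10.82, and Bank1, a B cell adaptor, differed by -1.34 (adjusted p = 0.0548). The thymic epithelium sum was 10.05 to 10.70 against 9.86 to 9.99, but it includes the called gene Cldn4. Without Cldn4 it was 9.70, 9.81, 10.02 and 10.29 in double transgenic tumors 1 to 4 and 9.83, 9.75 and 9.79 in line 420 tumors 1 to 3, and the groups overlapped. Of the 11 thymic epithelium markers on the array, 4 (Psmb11, Prss16, Krt14 and Trp63) lay below the array median on all 7 tumors. The fibroblast and endothelium list had the lowest median difference of the marker lists (-0.50 over 9 tested genes), and its sums (13 of 13 on the array, 6 above the median on all 7, 4 on none) were 10.71 and 10.78 in double transgenic tumors 1 and 2, 11.47 and 11.57 in tumors 3 and 4, and 11.31 to 11.40 in line 420 tumors. The sums of NK and cytotoxic markers (9 of 10 on the array, 3 above the median on all 7, 5 on none) overlapped, at 9.50 to 10.63 against 9.61 to 11.08. The parts of these markers in the called genes were not tested. The neutrophil sums were 9.51 to 9.82 against 9.81 to 9.85, with 9 of 13 markers below the median on all 7 tumors. No chromosome apart from Y departed far from the rest: autosomal medians of the difference ran from -0.03 (chromosome 15) to 0.06. On chromosome 15 line 420 tumor 1 alone stood at 0.21 above the other autosomes, against -0.10 and -0.11 in line 420 tumors 2 and 3.

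The double transgenic group was itself divided by Dlx5 founder line. Between the founder line 47 tumors (1 and 2) and the founder line 86 tumors (3 and 4) 554 genes differed (4.28%), 202 higher in 47 (1.56%) and 352 lower (2.72%). Of the 1193 genes called for founder line 86 against line 420, 389 also differed between the founder lines. Both comparisons use the same 2 founder line 86 tumors, so part of this overlap is built in and it is not separate support. With 2 tumors per founder line the spread was borrowed from the other groups, and other properties divided the 4 tumors in the same way. These were the Xist and Kdm5d pattern, the type of sample code in the labels (letters for 47 and for line 420 tumor 3, numbers for the others) and the Akt2 line, which is 420 for founder line 47 and not named for founder line 86. None of them can be told apart from the Dlx5 founder line. Akt2 was at 10.11 and 10.04 in founder line 86, where the line 72 mean was 9.96 and the line 420 mean 9.60 (47 minus 86, -0.48; adjusted p = 0.0258). Dlx5 itself did not pass between founder lines (47 minus 86, -0.59; adjusted p = 0.273).

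T cell surface and signaling genes made up part of what was higher in founder line 86. Besides Cd5 (47 minus 86, -3.21; adjusted p = 0.0437), Cd6, a related receptor, was at 8.26 and 7.12 in founder line 47 and at 10.20 and 10.02 in founder line 86, against 6.76, 6.89 and 7.06 in line 420 (47 minus 86, -2.42; adjusted p = 0.0456). Id3, an inhibitor of E proteins, was at 6.97 and 6.63 in founder line 47, at 8.78 and 8.81 in founder line 86 and at 6.97 to 7.04 in line 420 tumors. The founder line 47 tumors lay within or below the line 420 range for Id3, and the founder line 86 tumors near the WT mean of 8.95 (47 minus 86, -2.0; adjusted p = 0.00171). The activation marker Cd69 was at 8.05 and 6.05 against 9.94 and 9.93 and did not pass (47 minus 86, -2.89; adjusted p = 0.0787). Inhibitory and costimulatory receptors followed the same division, with list medians against line 420 of -0.14 in founder line 47 and 1.02 in founder line 86, and 5 of 21 members lower in 47 than in 86 (2.72% of all genes). The double-positive stage list divided less clearly. Its medians against line 420 were 0.54 in founder line 47 and 1.37 in founder line 86. Of its 19 members 1 was lower in 47 than in 86 (2.72% of all genes). Tumor 1 of founder line 47 lay at 1.11, near the founder line 86 tumors, with tumor 2 at 0.12.

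The genes that differed most between the founder lines had varied known roles. Lrrc3b was at 6.70 and 5.82 in founder line 47 and at 9.39 and 9.04 in founder line 86, with a WT mean of 5.59 (47 minus 86, -2.96; adjusted p = 0.000144). Csn2, the beta-casein gene of milk, was at 5.74 and 5.20 against 7.89 and 9.00 (-2.98; adjusted p = 0.00264), and Rnase2a, an eosinophil-type ribonuclease, at 5.25 and 5.59 against 7.60 and 10.87 (-3.82; adjusted p = 0.0126). Mitf, a transcription factor of melanocytes and mast cells, was at 6.30 and 6.46 against 9.94 and 9.02 (-3.11; adjusted p = 0.0352). For each of these 4 genes both founder line 86 tumors lay above all line 420 tumors. Higher in founder line 47 were Calb2, the calcium-binding protein calretinin, at 10.91 and 8.72 against 4.16 and 5.06 (adjusted p = 0.0235), Mndal, an interferon-inducible gene, at 8.66 and 8.15 against 4.98 and 5.95 (adjusted p = 0.0221), Bnc1 (2.79; adjusted p = 0.0287), Il10 (2.65; adjusted p = 0.0245) and Astx5 (3.43; adjusted p = 0.0398). Calb2 was at 9.33 in line 420 tumor 2 and at 4.54 and 5.81 in the other line 420 tumors, so its level also varied within that line.

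DNA replication and glycolysis genes were among those higher in founder line 47, where 1.56% of all genes were. DNA replication genes had a list median against line 420 of 0.19 in founder line 47 and -0.34 in founder line 86, and 15 of 34 were higher in 47 than in 86, with a median of 0.55. Of 18 glycolysis genes 8 were higher in 47 (median 0.60). Other growth lists differed less, with 3 of 31 mitosis genes, 4 of 28 Myc target and ribosome biogenesis genes and 0 of 20 D cyclin, G1 kinase and inhibitor genes higher in 47 by limma, and none lower. Slc2a1, the glucose transporter GLUT1, was at 10.54 and 10.53 in founder line 47 and at 9.30 and 9.62 in founder line 86, against 9.23, 8.71 and 9.35 in line 420 tumors (47 minus 86, 1.08; adjusted p = 0.0182). Because the 2 founder lines lay on either side of line 420 for these lists, the pooled comparison gave medians of -0.09 for DNA replication and 0.17 for glycolysis.

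**Figure D5:**
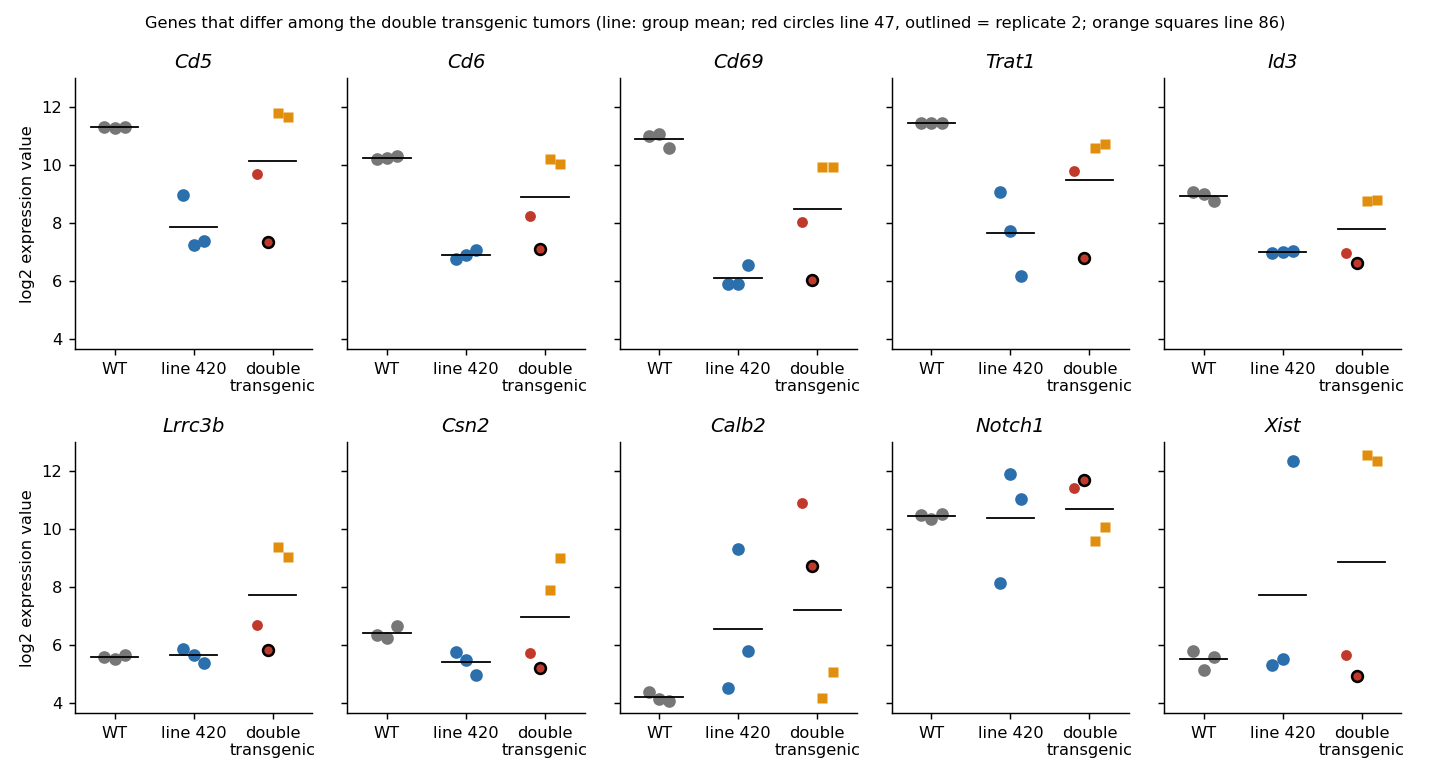
Log2 levels of Cd5, Cd6, Cd69, Trat1, Id3, Lrrc3b, Csn2, Calb2, Notch1 and Xist in WT thymic T cells, line 420 tumors and double transgenic tumors, with founder line 47 as circles and founder line 86 as squares. Id3 is at 6.63 and 6.97 in founder line 47 and at 8.78 and 8.81 in founder line 86, and Xist separates the same 2 pairs (4.94 and 5.65 against 12.57 and 12.37).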

How the data were processed

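The deposited values were log2 expression summaries per transcript cluster of the Affymetrix Mouse Gene 2.0 ST array, made by the authors from 16 samples. The submitters' processing notes name Affymetrix Expression Console, and its version, summarization and normalization are not given in the sources used here. The log2 values were used as deposited, and all sample columns were used. No fold changes of the authors were used. Symbols came from the platform's probe table, chromosomes and starts from RefSeq tables on GRCm38.p6, which placed 12859 of the 12932 genes tested.

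One mean per group was fitted to the 16 arrays in 5 groups (6 with the Dlx5 founder lines apart) with limma 3.58.1 (lmFit, eBayes) in R 4.3.3, and p-values were adjusted over all genes tested by Benjamini-Hochberg. Every p-value given is limma's and two-sided. Fold changes are 2 to the power of the log2 difference. The number of arrays limits the precision. Replicates of a group were compared and none were copies of another. The gene lists and comparisons were chosen with earlier results of these data known. Genes named are the 12 highest and 12 lowest called ones (without predicted genes, small RNAs, olfactory receptors and antigen receptor segments), the genes of the study, up to 4 called or the 2 largest members of each list described, sex-linked transcripts, and the 5 highest and lowest between founder lines; predicted and other genes outside this rule were named after their values were seen. The fit was tested on simulated data for the comparison of double transgenic with line 420 tumors over 12932 genes. It called 83 of 100 genes shifted by 1 log2 unit, 96 of 100 shifted by 2 units and 5 of 12732 left unshifted. Whether these shares hold for the tumors, whose double transgenic group was divided by Dlx5 founder line, was not tested. Alternatives were other normalizations, filters, feature summaries, weights, sets of arrays, thresholds, the type of sample code as a term, and another reference line. Tables were summarized with pandas 2.3.3 in Python 3.11.15 and plotted with matplotlib 3.10.9.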

Additional observations from a re-analysis of the deposited data

Results flagged for a closer look

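In the double transgenic group 2 of the 118 named genes had 1 tumor far from the other 3. Bcl2l1, which encodes the survival protein Bcl-xL, was at 7.35 in tumor 2 and at 8.12 to 8.27 in the others. Lef1 was at 11.57 in tumor 1 and at 11.05 to 11.13 in the others. Chance alone marks about 1 in 20 groups in this way.

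For 27 of the 118 named genes the difference from line 420 was not the same in the 2 Dlx5 founder lines, by limma's test of founder line 47 minus 86 at an adjusted p of 0.05. Since line 420 is common to both, this is the difference between the founder lines themselves. The 118 named genes include the 5 highest and 5 lowest of this same contrast, so the share among them is raised by selection. Over all genes tested the share was 554 of 12932 (4.28%). T cell surface and homing genes were lower in founder line 47: Cd5 (-3.21), Cd6 (-2.42) and the chemokine receptor gene Ccr9 (-2.36). So were genes of regulators, namely Egr1 (-2.32), Id3 (-2.0), the phosphatase gene Inpp4b (-1.60), Tnik (-1.37), Lats2 (-1.0), the Notch coactivator gene Maml2 (-0.97), the Polycomb cofactor gene Jarid2 (-0.85) and Akt2 (-0.48). Xaf1 (-1.30) and Cldn4 (-1.05) also lay lower there, as did Rnase2a (-3.82), Mitf (-3.11), Csn2 (-2.98) and Lrrc3b (-2.96). Higher in founder line 47 were Calb2 (5.20), Astx5 (3.43), Mndal (2.94), Bnc1 (2.79), Il10 (2.65), the fatty-acid carrier gene Fabp4 (2.21), the heat shock gene Hspa1b (1.61) and Slc2a1 (1.08). The mitotic checkpoint kinase gene Bub1b (0.79) and Cad (0.79), which starts pyrimidine synthesis, were higher there as well. The Xist pattern, the type of sample code and the Akt2 line named in the labels (420 for founder line 47, none for founder line 86) divide the 4 tumors the same way and cannot be told apart from the Dlx5 founder line.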

How the results depend on the processing

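The count of 16 higher and 7 lower genes moved with most choices. Quantile normalization and a shift of the arrays to the same median each left 4 lower. Of the other settings for all 7 tumors, array weights gave 531 higher and 114 lower, group weights 3 and 2, the 7 arrays alone 1 and 2, the 10 Lck-MyrAkt2 transgenic arrays 5 and 2, and the type of sample code as a term 338 and 75. A log2 change of at least 1 left 10 higher, and an adjusted p under 0.01 left 2 and 2. A mean of both founder lines that were split in the fit, chosen after seeing the data, gave 284 and 56. Number-coded arrays alone gave 616 and 189, and letter-coded arrays alone 26 and 57. Founder line 47 alone left 3 lower, and founder line 86 alone gave 898 and 295. Line 72 in place of line 420 gave 1189 and 1101, and both lines together 707 and 416. Leaving out 1 tumor at a time gave 3 to 503 higher and 3 to 162 lower. The cause of these shifts was not tested. Between founder lines, 202 higher and 352 lower became 79 and 202 at a log2 change of at least 1, 18 and 69 at an adjusted p under 0.01, and 25 and 88 with 7 arrays alone, and leaving out 1 tumor gave 15 to 300 and 60 to 428.

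Of the 23 called genes 17 kept their sign in every alternative tried, and 0 stayed called in all of them. Against line 72 the sign turned for Abcc1 (-0.94), Dlx6 (0.26), Igf2bp3 (-0.41), Ighg3 (0.30), Spint2 (-0.12) and Tmem185b (-0.044), and for Id3 (-1.36), Ms4a1 (1.16) and Slc4a1 (-2.08), which were not called here. Slc4a1 was at -1.04 against both lines, and Xaf1 at 0.82 on number-coded arrays. Dlx5 was lost only with the 7 arrays alone (adjusted p = 0.103), and Dlx6 and Dlx6os1 only against line 72 (adjusted p = 0.441 and 0.868). No paired analysis was possible because the labels give no replicate numbers that the groups share.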

Other observations

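Features without exactly 1 gene symbol were fitted apart from the genes: of 10005 tested, 5 were higher and 7 lower in double transgenic than in line 420 tumors at an adjusted p of 0.05 (limma). They are unnamed here.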
